A study of Mus musculus with 8 samples.

Results

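Basal cells of the mouse mammary gland that carried both Lgr5 and high Tspan8 (Lgr5+T8hi) were set against basal cells that carried neither marker (Lgr5-T8-). Members were taken by their titles, which gave 4 libraries of 8 in the series, 2 per population. Each population had 1 library in batch 1 and 1 in batch 2, as the labels record. Both populations came from untreated 10-week-old C57BL/6 females with the Lgr5-GFP-IRES-CreERT2 allele. In that knock-in allele the Lgr5 locus drives GFP and an inducible Cre recombinase, so GFP served to read Lgr5. The labels give neither the number of mice behind a library nor whether libraries of the same population are from separate mice. The p-values therefore measure only the spread between these libraries, which may be technical.

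Basal cells form the outer layer of the mammary ducts. They anchor the epithelium to its basement membrane, make keratins 5 and 14, and contract like smooth muscle to move milk when oxytocin acts on them. Part of the stem cell activity of the gland also lies in this layer. Lgr5 is a receptor for R-spondins, secreted proteins that strengthen Wnt signalling, and it marks stem cells in the intestine and hair follicle. Tspan8 is a tetraspanin, a small membrane protein that organises other proteins at the cell surface. The comparison asks how the expression of cells with both markers departs from that of cells with neither.

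The 4 libraries held 36175181 and 24662492 counts in Lgr5+T8hi cells, and 34490324 and 25904146 counts in Lgr5-T8- cells. A limit of 3 counts stood for 0.0829 and 0.122 CPM (counts scaled to a common library size) in the Lgr5+T8hi libraries, and for 0.087 and 0.116 CPM in the Lgr5-T8- libraries. That limit covers counting error only. Basal identity was present in every library, with Krt5, a keratin of basal cells, at 2614 and 2538 CPM in Lgr5+T8hi cells and 2106 and 2203 CPM in Lgr5-T8- cells. Epcam, a surface protein of epithelium, stood at 710 and 467 CPM in Lgr5+T8hi cells and 535 and 369 CPM in Lgr5-T8- cells. In bulk RNA, fewer cells of a type and less RNA per cell cannot be told apart.

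The genes used for the sort followed the labels and are not a finding. Tspan8 (Entrez 216350; GRCm38.p6 chromosome 10, 115816817 to 115849893) had 289 and 261 CPM in Lgr5+T8hi cells, against 4.37 and 3.16 CPM in Lgr5-T8- cells. Lgr5 (Entrez 14160; chromosome 10, 115450314 to 115587780) had 174 and 193 CPM in Lgr5+T8hi cells, against 58.4 and 50.5 CPM in Lgr5-T8- cells. Lgr5 RNA was thus well above the counting limit in cells sorted as negative. The log2 differences were 6.19 for Tspan8 and 1.75 for Lgr5, so the pair of populations is separated far more by Tspan8 RNA than by Lgr5 RNA.

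Across all genes, 3287 of 16526 tested genes (19.9%) passed edgeR's quasi-likelihood test with batch as a block, at a Benjamini-Hochberg adjusted p under 0.05. Of these, 1837 (11.1%) were higher and 1450 (8.77%) were lower in Lgr5+T8hi cells. These shares are the background for each list count given below. At least a log2 change of 1 was reached by 892 higher genes (5.4%) and by 440 lower genes (2.66%). All 3287 had the same sign in both batches, and the libraries of the populations did not overlap for 3025 of them. With batch as a block and 1 library per population in each batch, the call itself favours such agreement. It is therefore no separate support for the calls. Libraries did not overlap for 7330 of all genes tested (44.4%). The log2 differences of the batches had r = 0.812 over 11196 genes that averaged 5 CPM or more, across genes that are not independent replicates. A fit without the batch block called 931 genes, of which 924 were shared with the blocked fit. Without the batch 1 or batch 2 Lgr5+T8hi library the count was 1554 or 1681. Without the batch 1 or batch 2 Lgr5-T8- library it was 2319 or 4051. A fit that leaves out a library keeps 1 library of that population and assumes that it varies like the others. The median log2 difference of all genes was -0.02.

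**Figure D1:**
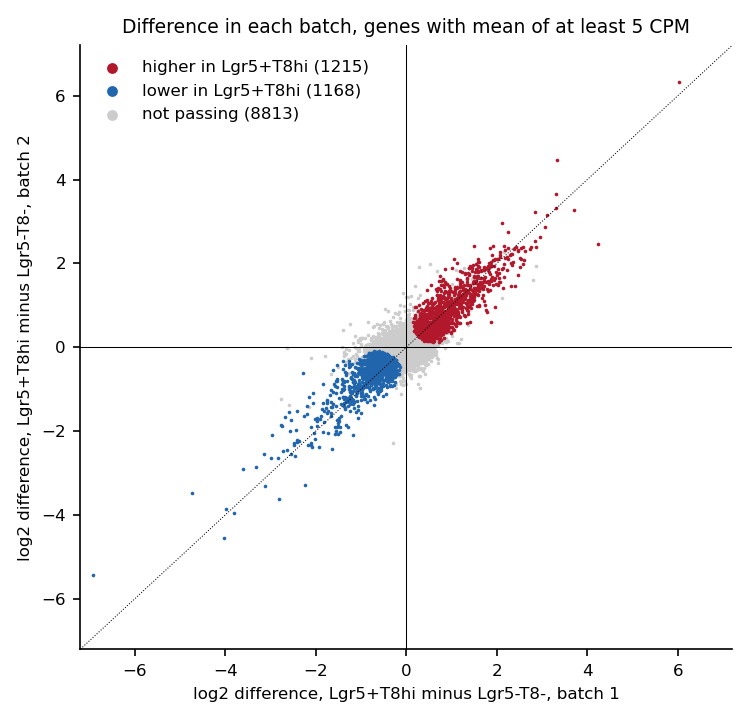
Log2 difference between Lgr5+T8hi and Lgr5-T8- cells in batch 1 (x axis) and batch 2 (y axis) for each gene that averaged 5 CPM or more. Red points are the 1215 genes called higher, blue points the 1168 called lower and grey points the 8813 that did not pass. Called genes lie along the diagonal, with the same sign on both axes, which the call itself favours.

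The genes furthest above Lgr5-T8- cells included a secreted Wnt inhibitor, a tight junction protein and Gli1 and Gli2, transcription factors of the Hedgehog pathway. Sfrp1, a secreted protein that binds Wnt ligands (Entrez 20377; chromosome 8, 23411383 to 23449632), had 419 and 328 CPM in Lgr5+T8hi cells, against 42.5 and 25.9 CPM in Lgr5-T8- cells. Its log2 change was 3.48 ± 0.11 (SE; edgeR adjusted p = 9.44e-09). Ocln, occludin of tight junctions (Entrez 18260; chromosome 13, 100496504 to 100552718), had 57.1 and 32.7 CPM in Lgr5+T8hi cells, against 4.34 and 3.31 CPM in Lgr5-T8- cells. For both genes every Lgr5+T8hi library was above every Lgr5-T8- library, and the Ocln log2 change was 3.54 ± 0.14 (edgeR adjusted p = 4.02e-08). Frmpd4, a scaffold protein of synapses, rose by 3.84 ± 0.23 (edgeR adjusted p = 2.63e-06), with 26.4 and 20.7 CPM in Lgr5+T8hi cells against 2.55 and 0.882 CPM in Lgr5-T8- cells. Ptprd, a receptor tyrosine phosphatase, rose by 3.36 on the log2 scale. Mfap5, a protein of elastic microfibrils, rose by 2.85 and Pi16, which marks a class of fibroblasts, by 2.63. Ighm, the heavy chain of immunoglobulin M, rose by 3.33. Ifi205 rose by 2.78, and its reads may be shared with near-identical members of its family, so that value is uncertain. Markers of fibroblasts and immune cells were also higher in the Lgr5+T8hi libraries, as given with the marker lists, and their part in these values was not tested.

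The genes furthest below Lgr5-T8- cells included a protease inhibitor, an ion channel, developmental transcription factors and matrix proteins. Serpinb2, an inhibitor of plasminogen activators (Entrez 18788; chromosome 1, 107500892 to 107525600), had 0.317 and 0.643 CPM in Lgr5+T8hi cells, against 46.5 and 30.5 CPM in Lgr5-T8- cells. Its log2 change was -6.38 ± 0.41 (edgeR adjusted p = 5.01e-05), the lowest among genes that averaged 5 CPM or more. The cation channel Trpm3 had 1.82 and 4.24 CPM in Lgr5+T8hi cells, against 50 and 48.2 CPM in Lgr5-T8- cells, a log2 change of -4.14 ± 0.40. Eya1, a co-activator of organ development, fell by 4.02 ± 0.22 on the log2 scale, with 0.75 and 0.946 CPM in Lgr5+T8hi cells against 12.8 and 14.6 CPM in Lgr5-T8- cells. Both genes were low in each Lgr5+T8hi library and 10 CPM or more in each Lgr5-T8- library. Col9a1, a collagen best known from cartilage, had 3.17 and 3.1 CPM in Lgr5+T8hi cells, against 45 and 49.1 CPM in Lgr5-T8- cells, a log2 change of -3.89 ± 0.22. The transcription factor Zfhx4 fell by 3.29, and the proteoglycan Spock3 by 4.38. Coch, an extracellular protein known from the inner ear, fell by 3.23, the phosphatase Ptprt fell by 3.12 and the tetraspanin Upk1b fell by 2.87. The guidance factor Sema3d fell by 2.77 and the sorting receptor Sorcs1 fell by 2.60. Lama1, given with the basement membrane genes, fell by 2.82. None of the genes named in these 2 paragraphs lost its call when any 1 of the 8 libraries was left out. Ifi205 alone among them lost it without the block (edgeR adjusted p = 0.0885).

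**Figure D2:**
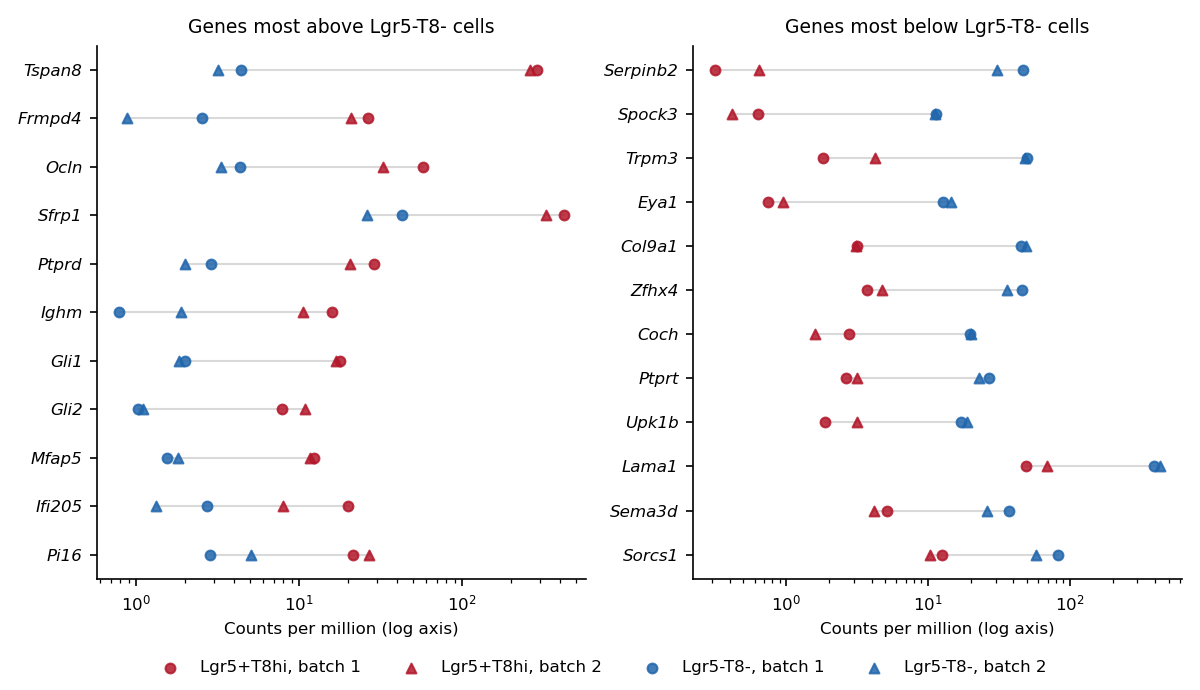
CPM (log axis) of 11 genes among the highest log2 changes and the 12 lowest, among called genes that averaged 5 CPM or more. Each point is 1 library, red for Lgr5+T8hi and blue for Lgr5-T8-, circles for batch 1 and triangles for batch 2; in each row the red and blue points are apart.

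The most abundant genes that changed by at least 0.5 on the log2 scale were a protease, stress-responsive regulators and actin-binding proteins. Adamts1, a secreted metalloprotease that cleaves proteoglycans, had 4699 and 3782 CPM in Lgr5+T8hi cells, against 1429 and 1236 CPM in Lgr5-T8- cells. Its log2 change was 1.66 ± 0.10 (edgeR adjusted p = 8.56e-07). Tsc22d1, a transcriptional regulator, had 1922 and 1327 CPM in Lgr5+T8hi cells, against 684 and 609 CPM in Lgr5-T8- cells, a rise of 1.30. Flnc, filamin C of striated muscle, rose by 1.21, with overlapping libraries of 2508 and 1385 CPM in Lgr5+T8hi cells against 1437 and 450 CPM in Lgr5-T8- cells. Klf6 rose by 0.68, Dusp1 by 0.59 and Atf3 by 0.52, all of them genes of the early response to stimuli. Atf3 lost its call without the batch 1 (edgeR adjusted p = 0.057) or batch 2 (edgeR adjusted p = 0.115) Lgr5+T8hi library. Thbs1, thrombospondin 1, fell by 0.72, Flna, filamin A, by 0.78 and Errfi1, an inhibitor of the EGF receptor, by 0.65. The Errfi1 libraries overlapped, and the gene lost its call without the batch 2 Lgr5+T8hi library (edgeR adjusted p = 0.112).

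Genes of the contractile apparatus were lower in Lgr5+T8hi cells. Of 26 members, 18 fell and 1 rose, and their median log2 change was -0.55, against -0.02 for all genes and 8.77% of all genes called lower. Acta2, the smooth-muscle actin that defines myoepithelium (Entrez 11475; chromosome 19, 34240336 to 34255585), had 3816 and 3330 CPM in Lgr5+T8hi cells, against 6697 and 6760 CPM in Lgr5-T8- cells. It fell by 0.92 ± 0.10 on the log2 scale (edgeR adjusted p = 6.36e-05). Myh11, the smooth-muscle myosin heavy chain, had 1983 and 1719 CPM in Lgr5+T8hi cells, against 4622 and 3653 CPM in Lgr5-T8- cells, a fall of 1.15 ± 0.10. Both were lower in each Lgr5+T8hi library than in either Lgr5-T8- library. Actg2, the enteric smooth-muscle actin, fell by 1.81 ± 0.11, with 103 and 126 CPM in Lgr5+T8hi cells against 363 and 435 CPM in Lgr5-T8- cells. Kcnmb1, the regulatory subunit of the large-conductance potassium channel of smooth muscle, had 13.3 and 13.2 CPM in Lgr5+T8hi cells, against 57.4 and 64.4 CPM in Lgr5-T8- cells. Its fall of 2.19 ± 0.10 (edgeR adjusted p = 7.87e-08) was the largest of the list. Synm, the intermediate filament protein synemin, fell by 1.39, the myosin kinase Mylk by 0.79, Tagln by 0.72 and Cnn1, calponin, by 0.72.

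Some contractile genes did not pass. Oxtr, the oxytocin receptor, had 268 and 354 CPM in Lgr5+T8hi cells, against 237 and 306 CPM in Lgr5-T8- cells, which did not pass (edgeR adjusted p = 0.173). Smtn, Lmod1, Synpo2, Pdlim7, Myl6 and Ppp1r14a did not pass either. Des, the muscle filament desmin, was the member called higher, at 17.3 and 13 CPM in Lgr5+T8hi cells against 11.3 and 9.34 CPM in Lgr5-T8- cells. That call was lost without the batch 1 (edgeR adjusted p = 0.111) or batch 2 (edgeR adjusted p = 0.0843) Lgr5+T8hi library and without the batch 1 Lgr5-T8- library (edgeR adjusted p = 0.0771). Without the block 7 contractile genes were lower.

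Many contractile genes are driven by serum response factor through the CArG box, a short AT-rich element. Srf itself had 143 and 161 CPM in Lgr5+T8hi cells, against 175 and 230 CPM in Lgr5-T8- cells, a fall of 0.41 that was lost without either Lgr5+T8hi library (edgeR adjusted p = 0.121 and 0.119) or the batch 2 Lgr5-T8- library (edgeR adjusted p = 0.0674). Its co-activator Myocd fell by 0.94, with 2.57 and 1.55 CPM in Lgr5+T8hi cells against 4.52 and 3.27 CPM in Lgr5-T8- cells. RefSeq promoters (GRCm38.p6, 250 bases before to 50 after the start) were matched for 14 of the 18 genes that fell, and 3 of these held a CArG box on either strand. Among the 8 other members it was 1 of 8, and among all tested genes with a promoter 1.63% held one. The list holds Srf itself and genes of a class known to be driven by it. A share above that of all genes was therefore likely in advance. The boxes are shown because the members moved together, and a match is a description, not a site. The stretches read 5′ to 3′ on the strand of the gene with the box in capitals, at chr2:156775278-156775337 (plus strand) for Myl9, chr14:20929148-20929207 (plus strand) for Vcl, chr17:46556200-46556259 (minus strand) for Srf and chr10:128493025-128493084 (minus strand) for Myl6, which did not pass the test:
Myl9: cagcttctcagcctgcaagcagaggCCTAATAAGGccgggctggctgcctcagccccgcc
Vcl: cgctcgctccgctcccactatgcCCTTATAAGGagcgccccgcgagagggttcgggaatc
Srf: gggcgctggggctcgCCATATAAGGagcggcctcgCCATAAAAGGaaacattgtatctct
Myl6: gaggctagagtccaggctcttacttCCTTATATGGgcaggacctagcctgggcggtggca
The Srf stretch holds 2 boxes and the others 1 each. Vcl, the adhesion protein vinculin, fell by 0.52 ± 0.09 and Myl9, the regulatory light chain of smooth-muscle myosin, by 0.53 ± 0.11 on the log2 scale. Myl9 lost its call without the batch 2 Lgr5+T8hi library (edgeR adjusted p = 0.109).

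Of 20 markers of basal cells, 1 rose and 5 fell (25% lower, beside 8.77% of all genes), with a median of -0.15. Krt14, the partner of keratin 5, had 5733 and 3965 CPM in Lgr5+T8hi cells, against 4548 and 3708 CPM in Lgr5-T8- cells, and Krt5 and Krt14 did not pass (edgeR adjusted p = 0.0822 and 0.169). Trp63, the transcription factor of the basal lineage, had 173 and 227 CPM in Lgr5+T8hi cells, against 250 and 350 CPM in Lgr5-T8- cells, a fall of 0.58 ± 0.09. Nrg1, a ligand of ErbB receptors made by basal cells, fell by 1.29 ± 0.10 and Itga6, an integrin chain used to sort basal cells, by 0.69 ± 0.11. Mme, the surface peptidase CD10, was the member that rose, by 0.73, with 567 and 525 CPM in Lgr5+T8hi cells against 359 and 301 CPM in Lgr5-T8- cells. The number lower was 3 without either Lgr5+T8hi library and 5 without either Lgr5-T8- library, and no basal marker passed without the block. The summed level of the 20 markers overlapped, at 22427 and 20096 CPM in Lgr5+T8hi cells and 22554 and 21755 CPM in Lgr5-T8- cells.

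Components of the basement membrane, the sheet on which basal cells sit, were lower in Lgr5+T8hi cells in 14 of 25 cases and higher in 2, with a median of -0.40. Lama1, the laminin alpha chain of embryonic basement membranes (Entrez 16772; chromosome 17, 67697127 to 67822645), had 49 and 68.7 CPM in Lgr5+T8hi cells, against 390 and 431 CPM in Lgr5-T8- cells. It fell by 2.82 ± 0.12 (edgeR adjusted p = 7.13e-08). The major collagen IV chains fell together, Col4a1 by 1.48 ± 0.11 and Col4a2 by 1.27 ± 0.10. Col4a1 had 956 and 1009 CPM in Lgr5+T8hi cells, against 2798 and 2675 CPM in Lgr5-T8- cells. Frem2, which links epithelium to matrix in the embryo, fell by 2.29, Lamc3 by 1.41, Col7a1, the collagen of anchoring fibrils, by 1.12 and Lamc1 by 0.72. Nid2, the linker nidogen 2, rose by 1.81 ± 0.12, with 37.3 and 34.6 CPM in Lgr5+T8hi cells against 10.3 and 10.2 CPM in Lgr5-T8- cells. Col4a5, Col4a6, Lama5, Agrn and Hspg2 did not pass. Lama2, the second member that rose (1.25), lost its call without the batch 2 Lgr5+T8hi (edgeR adjusted p = 0.0684) or the batch 1 Lgr5-T8- library (edgeR adjusted p = 0.0552). Left out in turn, the batch 1 and batch 2 Lgr5+T8hi libraries and the batch 1 and batch 2 Lgr5-T8- libraries gave 8, 9, 10 and 15 lower members, and 8 were lower without the block. Higher members numbered 2, 1, 4 and 2 in that order.

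Integrins, the receptors that bind these proteins, were lower in 8 of 25 cases and higher in 4, with a median of -0.16. Itgb3 fell by 1.42 ± 0.12, Itga1, a chain of a collagen receptor, by 1.19 ± 0.11 and Itga8 by 1.04 ± 0.10. Itga8 had 71 and 62.6 CPM in Lgr5+T8hi cells, against 140 and 133 CPM in Lgr5-T8- cells. Itga11, a chain of a collagen receptor of fibroblasts, rose by 2.07 ± 0.26, with 3.37 and 3.78 CPM in Lgr5+T8hi cells against 0.879 and 0.809 CPM in Lgr5-T8- cells. Itgb1 and Itgb4 did not pass. Lower integrins numbered 4 without the block, 4 without each of the first 3 of these libraries in turn, and 9 without the batch 2 Lgr5-T8- library, while the higher ones numbered 1 without the block and 4, 1, 2 and 3 with the libraries left out in that order.

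Luminal cells line the inside of the ducts, and several of their genes were higher in Lgr5+T8hi cells. Of 18 genes shared by luminal cells, 14 rose and 0 fell, with a median of 1.04. Besides Ocln, the simple epithelial keratin Krt18 had 458 and 329 CPM in Lgr5+T8hi cells, against 210 and 154 CPM in Lgr5-T8- cells, a rise of 1.11 ± 0.14. Its partner Krt8 rose by 0.60 ± 0.10, with 835 and 603 CPM in Lgr5+T8hi cells against 511 and 427 CPM in Lgr5-T8- cells. Neither keratin overlapped between the populations. The claudins Cldn7 and Cldn3 of tight junctions rose by 2.44 and 1.35, the mucin Muc1 by 1.5 and the protease inhibitor Spint1 by 1.31. Gata3, a transcription factor of the luminal lineage, did not pass, at 128 and 106 CPM in Lgr5+T8hi cells and 124 and 111 CPM in Lgr5-T8- cells. The number higher was 5 without the block, and 11, 9, 10 and 11 with the batch 1 and 2 Lgr5+T8hi and the batch 1 and 2 Lgr5-T8- libraries left out in turn. Among the genes called higher, Epcam rose by 0.38 with overlapping libraries and lost its call without the batch 1 (edgeR adjusted p = 0.145) or batch 2 (edgeR adjusted p = 0.0598) Lgr5+T8hi library, or without 1 library that only served to estimate spread (edgeR adjusted p = 0.0524).

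In the hormone-sensing class of luminal cells, 10 of 17 genes rose and 1 fell, with a median of 1.26. Ly6a, which rose by 1.69, is also a member of the fibroblast list and counts in both. Foxa1, which opens chromatin for the oestrogen receptor, had 20.4 and 15.9 CPM in Lgr5+T8hi cells, against 4 and 4.04 CPM in Lgr5-T8- cells, a rise of 2.17 ± 0.17 (edgeR adjusted p = 4.76e-06). The growth factor Areg rose by 0.94 and the transcription factor Tbx3 by 0.81. The hormone receptors that define the class did not pass. Esr1 had 11.8 and 11 CPM in Lgr5+T8hi cells, against 12.5 and 8.82 CPM in Lgr5-T8- cells. Pgr had 19.3 and 25.4 CPM in Lgr5+T8hi cells, against 19.5 and 21.7 CPM in Lgr5-T8- cells. Esr1 and Pgr overlapped, while Prlr, at 68.3 and 77 CPM in Lgr5+T8hi cells and 31.8 and 21.2 CPM in Lgr5-T8- cells, did not overlap but missed the threshold (edgeR adjusted p = 0.0786). Without the block 4 were higher and 0 lower, and with the same libraries left out in the same order 7, 5, 6 and 9 were higher and 0, 0, 1 and 0 lower.

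Among genes of luminal progenitors and milk, 10 of the 15 tested rose and 3 fell, with a median of 1.22; 5 of the 20 listed, caseins and Wap, had too few counts to test. Wfdc18, a secreted milk protein, rose by 2.54 ± 0.19, with 24.9 and 28.3 CPM in Lgr5+T8hi cells against 3.7 and 5.51 CPM in Lgr5-T8- cells. Muc15 rose by 1.87, the co-receptor Cd14 by 1.72, the milk transcription factor Elf5 by 1.53 and kappa-casein, Csn3, by 1.5. Lipocalin 2, Lcn2, fell by 0.67, with 921 and 679 CPM in Lgr5+T8hi cells against 1370 and 1154 CPM in Lgr5-T8- cells. Mfge8, a milk fat globule protein also made by basal cells, fell by 0.85 ± 0.09, with 413 and 483 CPM in Lgr5+T8hi cells against 710 and 907 CPM in Lgr5-T8- cells. The summed level of the list, most of it from these abundant genes, was lower in Lgr5+T8hi cells, at 1669 and 1475 CPM against 2266 and 2199 CPM in Lgr5-T8- cells. Without the block 7 were higher and 0 lower. With the libraries left out in the same order, 9, 8, 8 and 7 were higher and 2, 2, 2 and 3 lower.

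**Figure D3:**
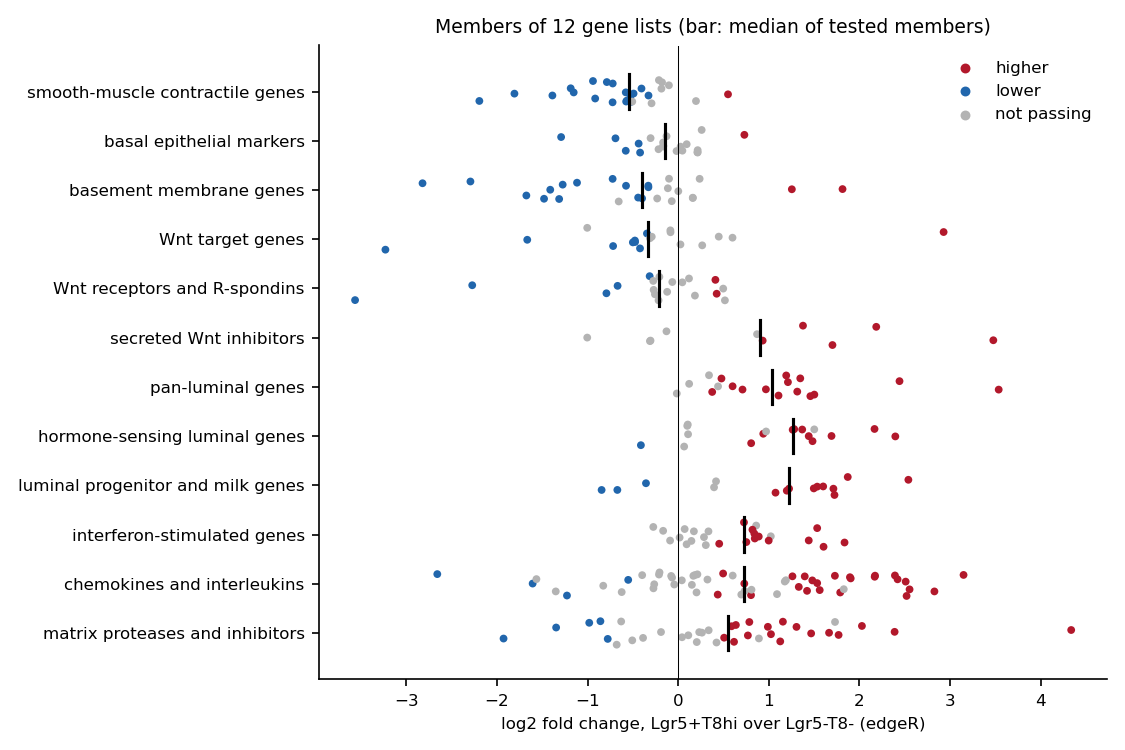
Log2 change, Lgr5+T8hi over Lgr5-T8-, of each tested member (points) of 12 gene lists (rows), with the median as a black bar; red and blue points were called higher and lower and grey points did not pass. The medians of contractile and basement membrane genes lie below 0, at -0.55 and -0.40, and those of the luminal lists above 1.

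In the Wnt pathway, secreted ligands act on Frizzled and Lrp receptors to raise beta-catenin, R-spondins and Lgr receptors strengthen the signal, and secreted inhibitors hold the ligands back. Of 10 secreted inhibitors tested, 5 rose (50%, beside 11.1% of all genes) and 0 fell, with a median of 0.90. Besides Sfrp1, its relative Sfrp2 had 56.6 and 61.7 CPM in Lgr5+T8hi cells, against 11.8 and 14.3 CPM in Lgr5-T8- cells, a rise of 2.19 ± 0.12 (edgeR adjusted p = 2.7e-07). Dkk3, a divergent Dickkopf protein, rose by 0.93 ± 0.09, with 314 and 312 CPM in Lgr5+T8hi cells against 170 and 158 CPM in Lgr5-T8- cells. Sfrp4 and Sfrp5 rose by 1.70 and 1.38 at low levels. Wif1, another inhibitor, went the other way without passing, at 132 and 118 CPM in Lgr5+T8hi cells and 139 and 171 CPM in Lgr5-T8- cells (edgeR adjusted p = 0.0821). The number of inhibitors higher was 4 without the block and 5 or 6 with any 1 of the 4 compared libraries left out.

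Wnt target genes were lower in part, with 8 of 18 lower (44.4%) and 1 higher (5.56%) and a median of -0.33. Of all genes, 8.77% were lower and 11.1% higher. Axin2, the usual reporter of the pathway, had 20.2 and 25.3 CPM in Lgr5+T8hi cells, against 27.4 and 36.1 CPM in Lgr5-T8- cells, a fall of 0.48 ± 0.11 (edgeR adjusted p = 0.00929). Its call was lost without the batch 1 (edgeR adjusted p = 0.156) or batch 2 (edgeR adjusted p = 0.0507) Lgr5+T8hi library and without the batch 2 Lgr5-T8- library (edgeR adjusted p = 0.05). Tnfrsf19, a death-domain receptor known as Troy, had 0.634 and 0.983 CPM in Lgr5+T8hi cells, against 6.58 and 8.24 CPM in Lgr5-T8- cells, a fall of 3.23 ± 0.31. Nkd2, a feedback inhibitor, had 10.9 and 17.5 CPM in Lgr5+T8hi cells, against 37 and 51.7 CPM in Lgr5-T8- cells. Its fall of 1.67 was lost without the batch 2 Lgr5+T8hi (edgeR adjusted p = 0.0587) or the batch 1 Lgr5-T8- library (edgeR adjusted p = 0.0672). The target Ccnd1 did not pass, nor did Myc. Lef1, a transcription factor that carries the Wnt signal, was the member called higher, at 0.433 and 0.378 CPM in Lgr5+T8hi cells and 0.0303 and 0.0735 CPM in Lgr5-T8- cells, where both libraries were under the limit of 3 counts. Lower targets numbered 1 without the block, and 4, 2, 5 and 9 with the batch 1 and 2 Lgr5+T8hi and batch 1 and 2 Lgr5-T8- libraries left out in turn. Higher targets numbered 1 without the block, 0 with DESeq2, and 0, 0, 0 and 3 in that order.

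Among Wnt receptors and R-spondins, Lgr5 not counted, 5 of 19 fell (26.3%, beside 8.77% of all genes). The 2 that rose (10.5%) lie near the share of all genes (11.1%). Ror2, a receptor of noncanonical Wnt signals, fell by 2.27 ± 0.26, with 1.93 and 2.31 CPM in Lgr5+T8hi cells against 8.34 and 12.2 CPM in Lgr5-T8- cells. The relatives of Lgr5 differed in sign, with Lgr6 at 58.2 and 89.5 CPM in Lgr5+T8hi cells against 101 and 129 CPM in Lgr5-T8- cells, and Lgr4 at 266 and 267 CPM in Lgr5+T8hi cells against 202 and 199 CPM in Lgr5-T8- cells. Lgr6 fell by 0.67 and Lgr4 rose by 0.41, and both calls were lost without either Lgr5+T8hi library, with edgeR adjusted p from 0.0507 to 0.0658. Lower receptors numbered 1 without the block and 1, 1, 4 and 7 with the libraries left out in that order, and higher ones 0 without the block and 0, 0, 1 and 3.

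Of 14 Wnt ligands tested, 3 rose and 3 fell, 21.4% in each direction beside 11.1% and 8.77% of all genes. Wnt11, a noncanonical ligand, rose by 0.96 ± 0.10, with 261 and 192 CPM in Lgr5+T8hi cells against 123 and 109 CPM in Lgr5-T8- cells. Wnt9a rose by 1.32 ± 0.13, with 12.1 and 14.9 CPM in Lgr5+T8hi cells against 4.85 and 5.96 CPM in Lgr5-T8- cells. The remaining member that rose, Wnt2, had 0.75 and 1.17 CPM in Lgr5+T8hi cells, against 0.0606 and 0.184 CPM in Lgr5-T8- cells. Its batch 1 Lgr5-T8- library was under the limit of 3 counts. Wnt6 had 2.54 and 4.99 CPM in Lgr5+T8hi cells, against 11.1 and 18.8 CPM in Lgr5-T8- cells, a fall of 2.02 ± 0.18. Wnt5a and Wnt4 did not pass. Lower ligands numbered 1 without the block and 2, 2, 3 and 4 with the libraries left out in that order.

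Gli1 and Gli2, both among the highest log2 changes, transmit Hedgehog signals, and Gli1 is itself a target of the pathway. Gli1 (Entrez 14632; chromosome 10, 127329882 to 127341579) had 17.7 and 16.9 CPM in Lgr5+T8hi cells, against 2 and 1.84 CPM in Lgr5-T8- cells, a rise of 3.19 ± 0.28 (edgeR adjusted p = 8.14e-05). Gli2 had 7.84 and 10.9 CPM in Lgr5+T8hi cells, against 1.03 and 1.1 CPM in Lgr5-T8- cells, a rise of 3.13 ± 0.27. The list of pathway genes was drawn up after the values of Gli1 and Gli2 had been seen and includes both, so its count is not independent of them. Of 14 tested, 4 rose (28.6%), Gli1 and Gli2 among them, and 2 fell (14.3%), with a median of 0.07. Of all genes, 11.1% were higher and 8.77% lower. The receptor and target Ptch1 did not pass, at 13.1 and 18.1 CPM in Lgr5+T8hi cells and 11.3 and 13.4 CPM in Lgr5-T8- cells, and the transducer Smo did not pass either, at 75.1 and 93.2 CPM in Lgr5+T8hi cells and 74.9 and 89.1 CPM in Lgr5-T8- cells. Gli3, mainly a repressor, fell by 0.54 and lost its call without the batch 1 Lgr5+T8hi library (edgeR adjusted p = 0.0935). The ligand Shh had too few counts to test. Without the block 2 were higher and 0 lower, and higher members numbered 3, 2, 4 and 4 with the batch 1 and 2 Lgr5+T8hi and batch 1 and 2 Lgr5-T8- libraries left out in turn, and lower ones 0, 1, 1 and 1.

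Of 20 genes reported for mammary stem cells, 8 rose and 5 fell, with a median of 0.06. Foxc1, a transcription factor, had 52.2 and 30.3 CPM in Lgr5+T8hi cells, against 12.8 and 10.7 CPM in Lgr5-T8- cells, a rise of 1.77 ± 0.14 (edgeR adjusted p = 4.71e-06). Sox9 rose by 0.71 ± 0.09, with 431 and 289 CPM in Lgr5+T8hi cells against 258 and 180 CPM in Lgr5-T8- cells. Procr, the protein C receptor, rose by 1.05 ± 0.11 within the batches, but its libraries overlapped, at 126 and 49.7 CPM in Lgr5+T8hi cells and 61.1 and 23.9 CPM in Lgr5-T8- cells. Nrp1 and Notch1 rose by 0.94 and 0.77. Sox10, Bcl11b and Snai2 did not pass. Some of the members that rose, such as Procr and Cdh5, are also made by endothelial cells. Cdh5 lost its call without any 1 of the 4 compared libraries, with edgeR adjusted p from 0.136 to 0.285. Without the block 4 members were higher and 0 lower, and 0, 0, 3 and 4 were lower with the libraries left out in that order.

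Proteases that remodel the matrix and their inhibitors were higher more often than lower, 17 against 5 of 36 tested (of 46 listed), with a median of 0.55. These are 47.2% and 13.9%, beside 11.1% and 8.77% of all genes. Besides Adamts1, its relative Adamts5 rose by 2.03 ± 0.10 (edgeR adjusted p = 1.61e-07), with 99.5 and 61.7 CPM in Lgr5+T8hi cells against 25.6 and 14.3 CPM in Lgr5-T8- cells. Mmp3, stromelysin, had 7.93 and 8.32 CPM in Lgr5+T8hi cells, against 1.52 and 1.58 CPM in Lgr5-T8- cells, a rise of 2.39 ± 0.19. Mmp14, a membrane-bound protease that activates Mmp2, rose by 0.79, with 305 and 299 CPM in Lgr5+T8hi cells against 172 and 179 CPM in Lgr5-T8- cells. Mmp2 rose by 0.64 and Adamts2, which trims procollagen, by 1.16. Adamts17 fell by 1.93 ± 0.11, with 11.8 and 11.9 CPM in Lgr5+T8hi cells against 46.4 and 43.6 CPM in Lgr5-T8- cells. Of the inhibitors, Timp1 rose by 0.99 and Timp2 and Timp3 did not pass. Fibroblasts make several of these enzymes, and most fibroblast markers were higher in the same libraries, but a link was not tested. Higher members numbered 9 without the block and 11, 11, 13 and 17 with the batch 1 and 2 Lgr5+T8hi and batch 1 and 2 Lgr5-T8- libraries left out in turn, and 1 was lower without the block.

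Chemokines and interleukins, which call in and instruct immune cells, were higher in 24 of 55 tested members (of 85 listed) and lower in 4, with a median of 0.73. Il6 had 175 and 82.6 CPM in Lgr5+T8hi cells, against 47.2 and 26 CPM in Lgr5-T8- cells, a rise of 1.79 ± 0.14 (edgeR adjusted p = 2.31e-05). Cxcl9, a chemokine induced by interferon, had 21.6 and 25.4 CPM in Lgr5+T8hi cells, against 5.64 and 4.74 CPM in Lgr5-T8- cells, a rise of 2.17 ± 0.17. Both rose without overlap of the libraries. The alarmin Il33 rose by 1.56 and the neutrophil chemokine Cxcl2 by 1.26. Cxcl14, by far the most abundant of the list in CPM, rose by 0.50, with 3781 and 3253 CPM in Lgr5+T8hi cells against 2551 and 2421 CPM in Lgr5-T8- cells. Il17b fell by 1.23 ± 0.11, with 48 and 47.4 CPM in Lgr5+T8hi cells against 106 and 117 CPM in Lgr5-T8- cells. Cxcl12 and Ccl2 did not pass. Higher members numbered 11 without the block and 17, 17, 19 and 22 with the libraries left out in that order, and lower ones 2 without the block and 2, 2, 4 and 3.

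Of 25 interferon-stimulated genes tested, which act against viruses, 12 rose and 0 fell, with a median of 0.73. Ifit1 (Entrez 15957; chromosome 19, 34640889 to 34650009) had 39.8 and 21.2 CPM in Lgr5+T8hi cells, against 9.49 and 7.13 CPM in Lgr5-T8- cells, a rise of 1.84 ± 0.14 (edgeR adjusted p = 3.68e-06). Cxcl10, an interferon-induced chemokine, rose by 1.53 ± 0.13, with 55.3 and 56.1 CPM in Lgr5+T8hi cells against 17.6 and 21 CPM in Lgr5-T8- cells. Ifit3 rose by 1.60, the ubiquitin-like protein Isg15 by 0.89 and the GTPase Gbp2 by 0.82. Several transcription factors of the interferon response did not pass. Stat2 stood at 157 and 121 CPM in Lgr5+T8hi cells and 164 and 105 CPM in Lgr5-T8- cells. Irf7 and Irf9 did not pass either. Higher members numbered 3 without the block and 7, 8, 10 and 11 with the libraries left out in that order.

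Interferon signals act through the interferon-stimulated response element, searched as GAAA repeated after any 2 bases, or TTTC repeated after any 2 bases when read on the other strand. Promoters were matched for 10 of the 12 members that rose, and 9 of these 10 held it on either strand. It was held by 5 of 11 of the rest of the list, by 3.71% of all tested genes with a promoter and by 3.44% of all promoter windows. The list was made of genes known to respond to interferon, so a share above that of all genes was likely in advance. Ifit3 and its neighbour Ifit3b both count among the 9. A match is a description, not a site, and what raised these genes was not tested. Promoters of 5 genes that rose are shown with the element in capitals, at chr19:34640769-34640828 (plus strand) for Ifit1, chr19:34583365-34583424 (plus strand) for Ifit3, chr4:156200856-156200915 (minus strand) for Isg15, chr5:92349068-92349127 (minus strand) for Cxcl10 and chr3:142620579-142620638 (plus strand) for Gbp2, with chr10:128270251-128270310 (plus strand) for Stat2, which holds the element and did not pass (all GRCm38.p6, 5′ to 3′ on the strand of the gene):
Ifit1: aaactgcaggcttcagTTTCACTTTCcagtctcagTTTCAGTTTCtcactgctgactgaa
Ifit3: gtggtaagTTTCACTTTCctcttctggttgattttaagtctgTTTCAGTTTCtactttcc
Isg15: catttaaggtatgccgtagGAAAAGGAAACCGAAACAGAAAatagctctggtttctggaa
Cxcl10: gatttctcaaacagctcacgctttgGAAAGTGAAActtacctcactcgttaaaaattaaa
Gbp2: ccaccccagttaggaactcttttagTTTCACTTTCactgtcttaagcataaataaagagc
Stat2: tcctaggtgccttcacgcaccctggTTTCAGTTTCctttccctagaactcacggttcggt
The Ifit1 and Ifit3 stretches hold 2 separate copies, and in the Isg15 stretch 3 copies overlap. The Ifit3 stretch is identical in its neighbour Ifit3b. It lies before the start, so it does not show whether reads of these genes are shared. That was not tested, and their values are uncertain.

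**Figure D4:**
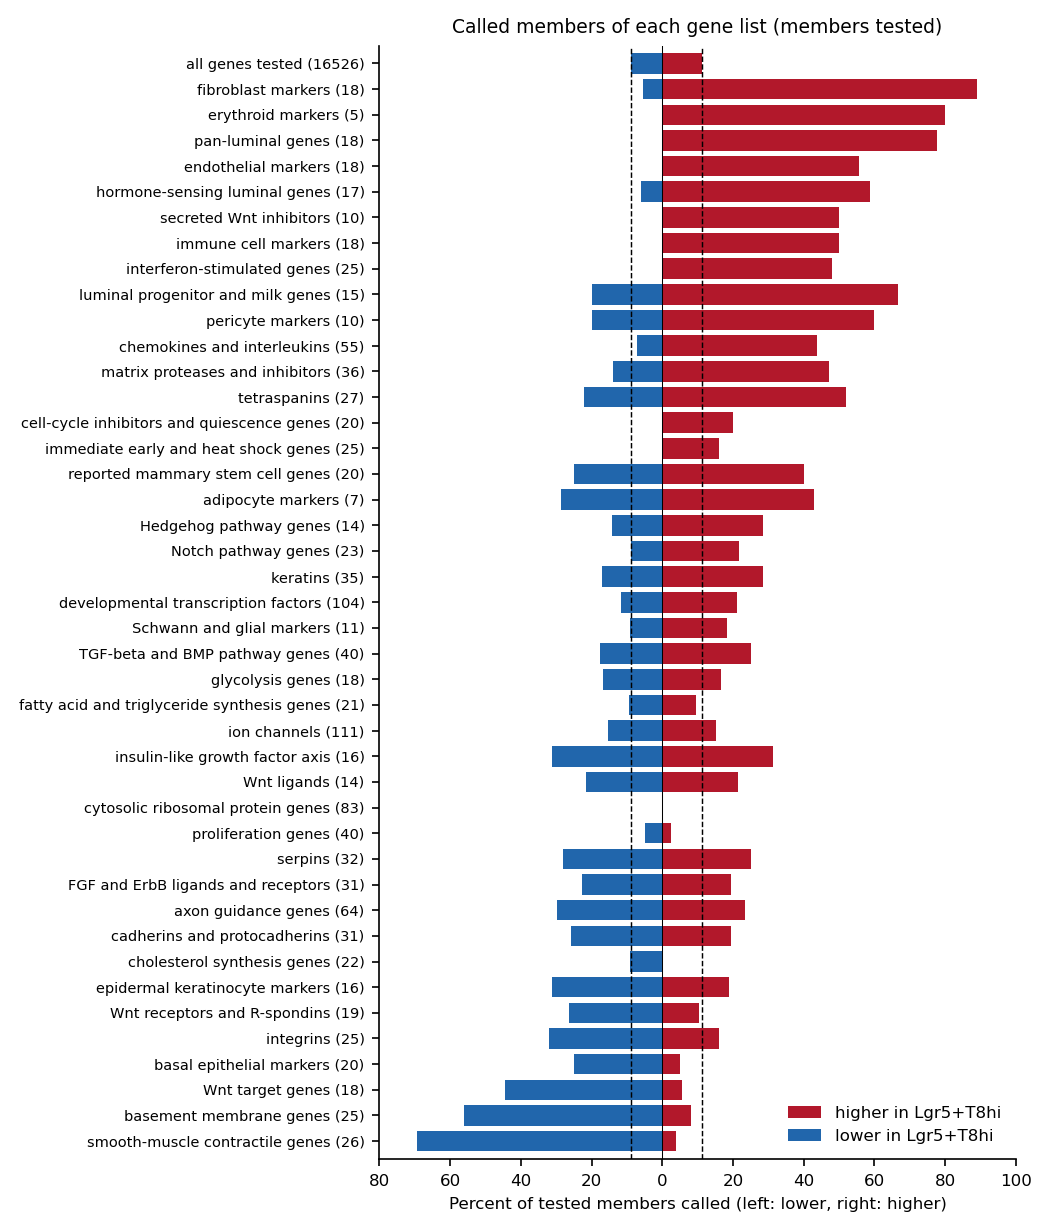
Percent of tested members called lower (left, blue) and higher (right, red) in Lgr5+T8hi cells for each gene list, with the number tested in brackets. All genes stand in the top row, and dashed lines mark their shares of 8.77% and 11.1%; fibroblast and pan-luminal lists reach far above them on the right and the contractile list on the left.

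Markers of cell types other than basal cells were mostly higher in the Lgr5+T8hi libraries, and their part in the results above was not tested. Fibroblast markers rose in 16 of 18 cases and fell in 1, with a median of 1.76. The collagen VI chain Col6a1 had 468 and 447 CPM in Lgr5+T8hi cells, against 103 and 89.5 CPM in Lgr5-T8- cells, a rise of 2.25 ± 0.10 (edgeR adjusted p = 7.87e-08). Dpt, dermatopontin, rose by 2.41. Col1a1 rose by 1.69, with 154 and 230 CPM in Lgr5+T8hi cells against 56.6 and 62.2 CPM in Lgr5-T8- cells, and lost its call without the batch 1 (edgeR adjusted p = 0.116) or batch 2 (edgeR adjusted p = 0.0641) Lgr5-T8- library. Decorin, Dcn, a proteoglycan that fibroblasts make, fell by 0.82, with 186 and 191 CPM in Lgr5+T8hi cells against 279 and 396 CPM in Lgr5-T8- cells, and lost its call without the batch 2 Lgr5+T8hi library (edgeR adjusted p = 0.0671). Pdgfra, which defines the type, stood at 12.2 and 16.7 CPM in Lgr5+T8hi cells and 9.03 and 11.3 CPM in Lgr5-T8- cells, a rise of 0.50 that was lost without the batch 2 Lgr5+T8hi (edgeR adjusted p = 0.252) or the batch 1 Lgr5-T8- library (edgeR adjusted p = 0.0933). The summed level of the list was 3073 and 3321 CPM in Lgr5+T8hi cells and 1485 and 1641 CPM in Lgr5-T8- cells.

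Endothelial markers rose in 10 of 18 cases and fell in 0. Pecam1, which defines blood vessels, had 124 and 138 CPM in Lgr5+T8hi cells, against 38.4 and 47.7 CPM in Lgr5-T8- cells. Its rise of 1.61 ± 0.37 barely passed (edgeR adjusted p = 0.0482) and was lost without any 1 of the 4 compared libraries, with edgeR adjusted p from 0.16 to 0.351. Vwf, at 112 and 140 CPM in Lgr5+T8hi cells and 34.2 and 39.4 CPM in Lgr5-T8- cells, did not pass, nor did Kdr, at 17.1 and 25.5 CPM in Lgr5+T8hi cells and 16.6 and 15.8 CPM in Lgr5-T8- cells. Endothelial members called higher numbered 7 without the block and 1, 3, 1 and 2 with the batch 1 and 2 Lgr5+T8hi and batch 1 and 2 Lgr5-T8- libraries left out in turn. The libraries did not overlap, in the higher direction, for 16 of the 18 markers, beside 22.8% of all genes tested. The summed level was 795 and 903 CPM in Lgr5+T8hi cells and 353 and 382 CPM in Lgr5-T8- cells.

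Immune cell markers rose in 9 of 18 cases and fell in 0, at low levels. Ptprc, the CD45 antigen that defines white blood cells, had 5.91 and 8.51 CPM in Lgr5+T8hi cells, against 1.36 and 1.58 CPM in Lgr5-T8- cells, a rise of 2.28 ± 0.24 (edgeR adjusted p = 4.2e-05). The summed level was 86.2 and 144 CPM in Lgr5+T8hi cells and 53.1 and 95.6 CPM in Lgr5-T8- cells, which overlapped. Immune members called higher numbered 3 without the block and 5, 2, 9 and 4 with the libraries left out in that order. Pericyte markers rose in 6 of 10 cases and fell in 2, and the defining Pdgfrb did not pass, at 38.4 and 40.2 CPM in Lgr5+T8hi cells and 35.4 and 30.1 CPM in Lgr5-T8- cells. Pericyte members called higher numbered 2 without the block and 4, 2, 5 and 5 in that order, and lower ones 0 without the block and 0, 0, 1 and 0. The pericyte sum was 503 and 433 CPM in Lgr5+T8hi cells and 417 and 317 CPM in Lgr5-T8- cells.

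Of 7 adipocyte markers tested, 3 rose and 2 fell. Fabp4, a fatty acid carrier of fat and capillary cells, had 309 and 210 CPM in Lgr5+T8hi cells, against 66.3 and 58.1 CPM in Lgr5-T8- cells, a rise of 2.04 that was lost without the batch 1 (edgeR adjusted p = 0.221) or batch 2 (edgeR adjusted p = 0.133) Lgr5-T8- library. Plin4, a lipid droplet protein, fell by 1.78, and Adipoq, which defines the type, had too few counts to test. Of 11 Schwann cell and glial markers, 2 rose (18.2%) and 1 fell (9.09%), beside 11.1% and 8.77% of all genes. Of 5 erythroid markers tested, 4 rose, all of them globins whose near-identical copies make the values uncertain. Of 16 epidermal keratinocyte markers, 3 rose and 5 fell, and Krt1 and Krt10, which define the suprabasal epidermis, fell by 3.18 and 1.05. Without the block 0 Schwann cell, 2 erythroid and 1 keratinocyte markers were higher, and 0 Schwann cell and 3 keratinocyte markers were lower. With the libraries left out in the same order, 2, 1, 2 and 3 Schwann cell, 2, 2, 2 and 3 erythroid and 2, 3, 3 and 2 keratinocyte markers were higher. Lower Schwann cell markers then numbered 0, 1, 2 and 0, and lower keratinocyte markers 3 each time. The summed level of the adipocyte list was 343 and 242 CPM in Lgr5+T8hi cells and 113 and 92.5 CPM in Lgr5-T8- cells, and that of the Schwann cell list was 289 and 260 CPM in Lgr5+T8hi cells and 216 and 243 CPM in Lgr5-T8- cells. The erythroid sum was 24.0 and 29.8 CPM in Lgr5+T8hi cells and 7.25 and 8.57 CPM in Lgr5-T8- cells, and the keratinocyte sum was 313 and 216 CPM in Lgr5+T8hi cells and 208 and 181 CPM in Lgr5-T8- cells.

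**Figure D5:**
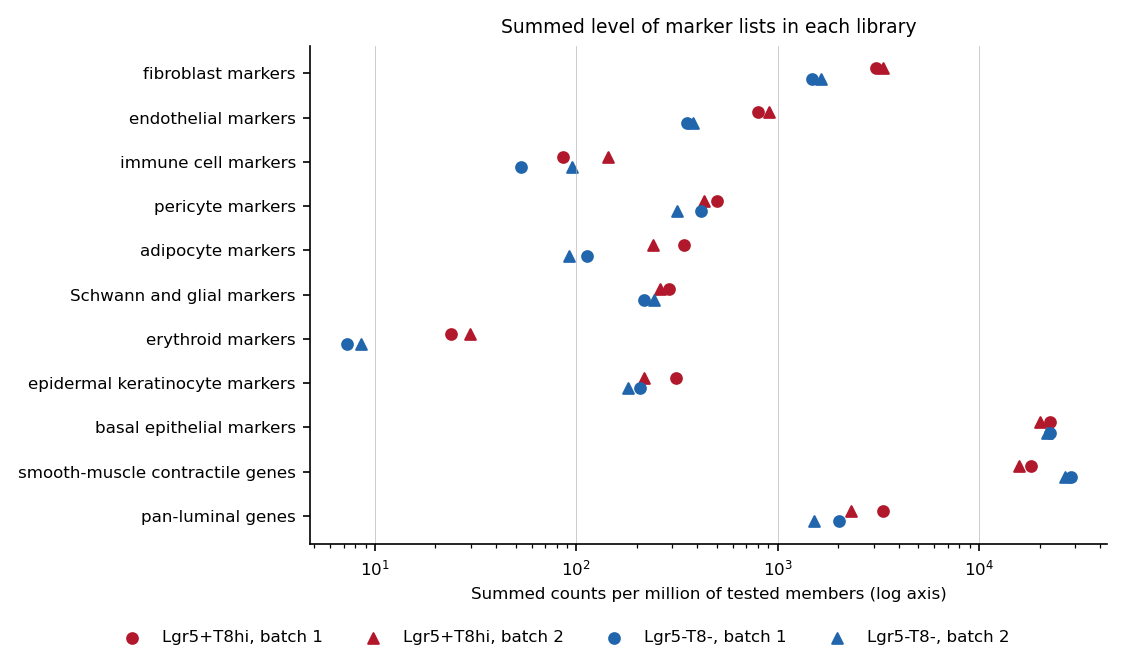
Summed CPM (log axis) of the tested members of 11 marker lists in each library, red for Lgr5+T8hi and blue for Lgr5-T8-, circles for batch 1 and triangles for batch 2. Sums of basal markers lie between 20096 and 22554 in every library, and those of basal and immune markers overlap. Both Lgr5+T8hi libraries exceed both Lgr5-T8- libraries for fibroblast, endothelial, pericyte, adipocyte, Schwann cell, erythroid, keratinocyte and pan-luminal sums. The contractile sum is lower in both Lgr5+T8hi libraries.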

How the data were processed

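RNA was sequenced single-end from sorted cells. The authors deposited raw counts of reads per Entrez gene with gene lengths, 27164 genes per library. Tools in the submitters' processing notes, listed without roles, are featureCounts, limma 3.24.14, edgeR 3.10.2 and CASAVA 1.8.2, with build mm10 (GRCm38); aligner and strand setting are not given in the sources used here, so overlapping genes are uncertain. The test was edgeR 4.0.16 (R 4.3.3), robust quasi-likelihood with TMM and filterByExpr (minimum count 10), on all 8 libraries, modelling population plus batch (3 residual degrees of freedom); the other 4 libraries served only to estimate spread. Of the genes, 16526 were tested. CPM used TMM-adjusted sizes. Symbols and positions came from RefSeq GRCm38.p6 (25260 genes matched; 2.56 to 2.86% of counts had no symbol). The block came from the labels, where batch equals replicate number; same-batch deviations had r = 0.415. Replicates differed beyond sampling noise (chi-square per degree of freedom 38.3 in Lgr5+T8hi and 60.9 in Lgr5-T8- cells).

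Members and lists were chosen with earlier results of these data known. Some lists share members, such as Cxcl10 of the chemokine and interferon lists, so their counts are not independent. Named were the sort genes, the 12 highest and 12 lowest log2 changes at an average of 5 CPM or more, the 6 most abundant per direction with a log2 change of at least 0.5, and from each list the 4 members of smallest adjusted p and its defining members; further members were named after their values were seen, and some genes the rule names are not reported here. Log2 changes ± SE are edgeR's. Alternatives were a fit without the block, RLE, other count filters, DESeq2 1.42.0, limma-voom (limma 3.58.1), 4 libraries only and leaving out each library. The test was also run on simulated counts. Their spread was taken from the fit to these libraries, so that run could not test the spread itself.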

Additional observations from a re-analysis of the deposited data

How the results depend on the processing

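Without the replicate block 931 genes were called, 581 higher and 350 lower, of which 483 and 252 reached a log2 change of 1; the common coefficient of biological variation was 0.0928 with the block and 0.192 without it. RLE normalization called 3250 genes, no count filter 3324, at least 1 CPM in 2 libraries 3089, DESeq2 2717, limma-voom 3381 and a fit to the 4 compared libraries alone 3550. Leaving out 1 library gave 1554 to 4051 genes in all, 950 to 2011 higher, 546 to 2102 lower, 545 to 939 higher and 255 to 583 lower by a log2 change of 1. Of 184 named genes that passed, 71 lost the call without the block, 3 with DESeq2 and 0 with limma-voom, and 133 kept it whichever library was left out.

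Some values turned sign when 1 library was left out, and the range over all 8 such fits is given. The log2 change of Esr1 went between -0.080 and 0.332, and the medians between -0.070 and 0.670 for Wnt ligands, -0.801 and 0.156 for Schwann cell markers, -0.615 and 0.235 for keratinocyte markers, -0.082 and 0.157 for FGF and ErbB genes, -0.193 and 0.021 for integrins, -0.012 and 0.356 for ion channels and -0.365 and 0.028 for cholesterol synthesis. Medians within 0.1 of 0 also turned, between -0.021 and 0.265 for reported mammary stem cell genes, -0.032 and 0.224 for serpins, -0.147 and 0.228 for the insulin-like growth factor axis, -0.079 and 0.144 for axon guidance genes, -0.032 and 0.125 for cadherins, -0.145 and 0.185 for ribosomal protein genes and -0.015 and 0.047 for glycolysis genes. With no count filter the medians were -0.049 for Wnt ligands and -0.0031 for keratins. With at least 1 CPM in 2 libraries they were 0.232 for epidermal keratinocyte markers, -0.018 for FGF and ErbB ligands and receptors and -0.017 for ion channels. The cause was not tested. With 2 libraries per population, calls rest on a spread estimated over 8 libraries, and levels near 0.1 CPM are not detectable at this depth.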

Other observations

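Guidance factors, first known from growing axons, moved in both directions, with 15 of 64 higher and 19 lower in Lgr5+T8hi cells. Those shares are 23.4% and 29.7%, beside 11.1% and 8.77% of all genes. Netrin 1, Ntn1, had 34.6 and 40.4 CPM in Lgr5+T8hi cells, against 6.85 and 8.6 CPM in Lgr5-T8- cells, a log2 rise of 2.28 ± 0.14 (edgeR adjusted p = 7.55e-07), and netrin 4, Ntn4, rose by 1.61. Slit2 had 35.1 and 34.3 CPM in Lgr5+T8hi cells, against 128 and 95 CPM in Lgr5-T8- cells, a fall of 1.67 ± 0.12, and its receptor Robo2 fell by 1.67. The receptor kinase Epha4 fell by 1.00. Without the block 3 were higher and 9 lower. With the batch 1 and 2 Lgr5+T8hi and batch 1 and 2 Lgr5-T8- libraries left out in turn, 9, 7, 12 and 13 were higher and 10, 11, 16 and 15 lower.

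Among ion channels, 17 of 111 tested were higher and 17 lower, 15.3% in each direction beside 11.1% and 8.77% of all genes. The share higher lies nearer to that of all genes than the share lower does. Kcnma1, the pore of the large-conductance potassium channel, had 2.25 and 2 CPM in Lgr5+T8hi cells, against 12.2 and 9.78 CPM in Lgr5-T8- cells. It fell by 2.37 ± 0.18 (edgeR adjusted p = 3.09e-06), beside the fall of 2.19 of its smooth-muscle subunit Kcnmb1. The calcium channels Cacna1c and Cacna1d fell by 1.19 and 1.11, and Kcnh1 by 0.93. Without the block 4 channels were higher and 10 lower. With the libraries left out in the same order, 10, 6, 14 and 15 were higher and 11, 18, 15 and 21 lower.

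Growth factor axes changed in part, where 11.1% of all genes were called higher and 8.77% lower. Of 16 genes of the insulin-like growth factor axis, 5 rose and 5 fell. The binding protein Igfbp2 had 43.5 and 35.2 CPM in Lgr5+T8hi cells, against 165 and 183 CPM in Lgr5-T8- cells, a fall of 2.15 ± 0.12 (edgeR adjusted p = 6.63e-07). Pappa2, a protease that cleaves such binding proteins, fell by 2.42, and Igfbp6 and Igf1 rose by 1.76 and 1.45. Of 31 FGF and ErbB ligands and receptors, 6 rose and 7 fell, with Fgfr3 higher by 1.01 and Fgfr4, Ereg and Epgn lower by log2 values of -2.14, -1.84 and -1.80. Of 40 genes of TGF-beta and BMP signalling, 10 rose and 7 fell, with Bmp2 (1.58), Bmp4 (1.96) and the target Id3 (1.46) higher and Bmp7 (-0.60) lower. Of 23 Notch pathway genes, 5 rose (21.7%), the target Hey1 by 0.65. The 2 that fell (8.7%) lie at the share of all genes. Without the block the insulin-like growth factor axis had 3 higher and 3 lower, FGF and ErbB genes 3 and 3, TGF-beta and BMP genes 2 and 0, and Notch genes 0 and 0. With the libraries left out in that order, the insulin-like growth factor axis had 3, 2, 2 and 3 higher and 3, 2, 5 and 6 lower. FGF and ErbB genes had 6, 4, 7 and 6 higher and 4, 5, 6 and 7 lower. TGF-beta and BMP genes had 7, 7, 9 and 12 higher and 4, 2, 6 and 7 lower. Notch genes had 5, 3, 4 and 5 higher and 0, 1, 2 and 3 lower.

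Of 104 developmental transcription factors tested, 22 rose (21.2%) and 12 fell (11.5%), beside 11.1% and 8.77% of all genes. Tbx2, a T-box repressor, had 5.83 and 5.64 CPM in Lgr5+T8hi cells, against 34.4 and 33.3 CPM in Lgr5-T8- cells, a fall of 2.56 ± 0.12 (edgeR adjusted p = 1.61e-07). The homeobox gene Dlx3 fell by 3.01, Dach1 by 1.03 and Runx2 by 0.91, and Foxj1, a regulator of motile cilia, rose by 1.15. Of 32 serpins, 8 rose and 9 fell, with the complement inhibitor Serping1 higher by 1.40. Of 31 cadherins, 6 rose and 8 fell, with Cdh6 (-2.92), Cdh11 (-1.24) and Cdh2 (-1.23) lower. Of 27 tetraspanins, Tspan8 among them, 14 rose and 6 fell, with Tspan17 (1.67) and Cd82 (0.77) higher and Tspan5 (-0.79) lower. Of 35 keratins, 10 rose (28.6%) and 6 fell (17.1%). Shares higher and lower were 25% and 28.1% for serpins, 19.4% and 25.8% for cadherins and 51.9% and 22.2% for tetraspanins. Without the block the counts higher and lower were 5 and 6 for transcription factors, 1 and 2 for serpins, 1 and 4 for cadherins, 6 and 2 for tetraspanins and 1 and 2 for keratins. With the libraries left out in the same order, transcription factors had 10, 8, 12 and 16 higher and 6, 11, 14 and 13 lower, and serpins 3, 4, 3 and 9 higher and 6, 3, 8 and 11 lower. Cadherins had 3, 3, 5 and 5 higher and 7, 4, 7 and 8 lower. Tetraspanins had 7, 7, 8 and 16 higher and 5, 3, 5 and 6 lower, and keratins 8, 8, 9 and 7 higher and 3, 3, 5 and 4 lower.

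Among lists of growth and metabolism, proliferation and ribosomal protein genes had smaller shares called than all genes (11.1% higher and 8.77% lower). Of 40 proliferation genes, 1 rose and 2 fell, and Mki67, at 20.2 and 49.9 CPM in Lgr5+T8hi cells and 58 and 69.4 CPM in Lgr5-T8- cells, did not pass (edgeR adjusted p = 0.236). Of 20 cell-cycle inhibitors and quiescence genes, 4 rose, and of 25 immediate early and heat shock genes, 4 rose. Of 83 cytosolic ribosomal protein genes, 0 passed with edgeR, DESeq2 or limma-voom, and 1 had an unadjusted edgeR p under 0.05. Of 22 cholesterol synthesis genes, 2 fell, of 21 fatty acid and triglyceride synthesis genes, 2 rose and 2 fell, and of 18 glycolysis genes, 3 rose and 3 fell. None of the members of these 7 lists passed without the block. Without the batch 2 Lgr5-T8- library, 9 proliferation genes were lower, 8 cell-cycle inhibitors, 12 immediate early genes and 12 ribosomal protein genes were higher, and 9 cholesterol synthesis genes were lower. Without either Lgr5+T8hi library, 0 or 1 members of each of the 7 lists passed per direction.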
